A study of Homo sapiens with 2 samples.

Results

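The genes that make, degrade and regulate polyamines were compared between 2 arrays of HCT15 cells, a line established from a human colorectal adenocarcinoma. They were 10 named genes of 19775 with a probe set of their own, chosen by pathway when the difference of SAT1 between these arrays was already known, so every difference of SAT1 below is a description. 22 probe sets carried exactly 1 of these symbols in the platform annotation. The brightest probe set, by the mean of both arrays, stood for a gene. All 10 passed the floor of 4.59 on the log2 scale, the median over non-control probe sets, which 12841 genes (64.9%) reached on at least 1 array. The order among the groups is by role: synthesis (ODC1, AMD1, SRM, SMS), acetylation and oxidation (SAT1, SMOX, PAOX), and the antizymes with their inhibitor (OAZ1, OAZ2, AZIN1).

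Total RNA came from 1 culture of HCT15 cells given Cas9 and an ARID3B guide RNA, labelled as an ARID3B knockout, and from 1 culture labelled control. The medium of both was RPMI with fetal bovine serum. The sources used here do not say whether the edited cells were a clone or a pool, or what the control cells received. A single array per group allowed no replicate check, no test and no standard deviation, so the precision is limited by the number of arrays. Each difference is the log2 value of the knockout-labelled array minus that of the control array. It is set beside a spread, the scaled median absolute deviation of the differences of genes of similar expression, which ran from 0.26 to 0.44 over 10 bins and mixes technical and biological variation.

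Polyamines are small, positively charged amines that bind nucleic acids and are needed for growth. Ornithine decarboxylase makes putrescine from ornithine, and spermidine and spermine synthases then add aminopropyl groups taken from decarboxylated S-adenosylmethionine. Degradation starts with acetylation by SAT1 followed by oxidation by PAOX, or with direct oxidation of spermine by SMOX. Antizymes, whose translation is raised by polyamines, send ornithine decarboxylase to the proteasome, and the antizyme inhibitor binds them in its place. Much of this control acts on translation and protein turnover, which an array of transcripts does not measure.

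ARID3B itself had a single probe set, which read 6.09 on the array labelled knockout and 5.12 on the control array. Its transcript was thus 1.95-fold higher where a loss was labelled, and all directions below depend on labels that this gene did not bear out. A transcript level does not show whether the gene was edited, and the edit was not tested here. Epithelial markers were present on both arrays (EPCAM at 12.23 and 12.19, KRT18 at 12.37 and 12.35). 8 of 10 epithelial markers reached the floor, and KRT20 and CDH17 did not. Of the other cell types, 2 of 5 fibroblast, 3 of 5 leukocyte and 1 of 4 endothelial markers reached it, where 64.9% of all genes did. The brightest of each list were COL1A1 at 7.12 and 6.87, CD14 at 6.54 and 6.51, and PECAM1 at 5.73 and 5.55. The defining leukocyte gene PTPRC stood at 2.72 and 2.48, the endothelial CDH5 at 2.07 and 2.17, and the fibroblast COL3A1 at 2.54 and 2.43, all under the floor. No marker above the floor differed by 2-fold in its brightest probe set, although dimmer probe sets of VIL1 and COL1A1 reached -1.05 and -2.47, the latter opposite to the brightest COL1A1 probe set at 0.25. The poly-A controls, bacterial RNAs usually spiked into a sample ahead of labelling, differed by a mean of -1.19 over 24 probe sets, and their part in the differences below was not tested. Scaling the arrays on them moved the median of all genes from 0.035 to 1.22, and turned ODC1, AMD1, SRM and PAOX and the medians of the synthesis, ornithine supply, methionine cycle and transport genes from below to above 0, so every direction below is relative to the bulk of the measured genes.

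SAT1 was the member that stood out. 1 of the 10 members, SAT1, was at least 2-fold higher on the knockout-labelled array, where 1.05% of the 12841 genes were, and 1 of 10, PAOX, was at least 2-fold lower, where 3.79% of all genes were. At 1.5-fold the counts were 1 higher (5.83% of all genes) and 2 lower, PAOX and AMD1 (10.5% of all genes). Of the 10, 6 lay above 0 and 4 below, with a median of 0.16. Over all genes above the floor the median was 0.035 and 52.9% lay above 0. Since SAT1 was known to be high before the members were listed, its count is given beside these shares and nothing is read from it.

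**Figure D1:**
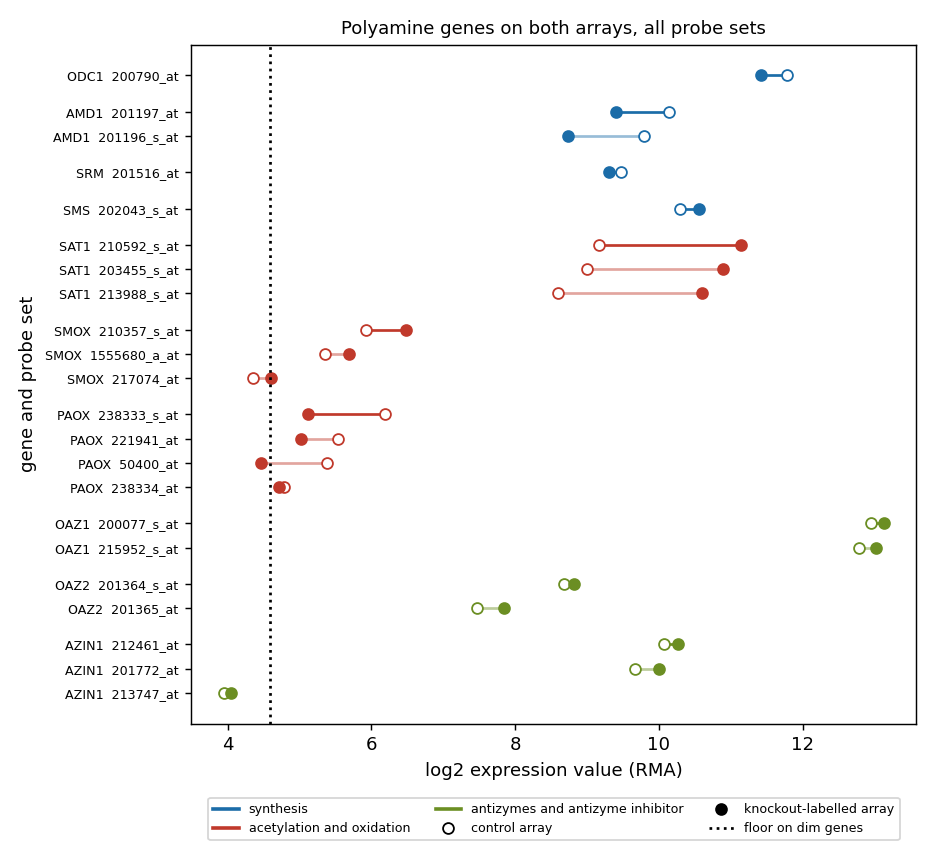
Log2 expression values of all 22 probe sets of the polyamine genes on the control array (open circles) and the knockout-labelled array (filled circles), brightest probe set of each gene first and dimmer ones in a paler line, with the floor of 4.59 as a dotted line. The 3 SAT1 probe sets are shifted to the right by 1.90 to 2.01, both AMD1 probe sets and the 4 PAOX probe sets lie to the left on the knockout-labelled array, and the antizyme genes hardly separate.

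SAT1 encodes spermidine/spermine N1-acetyltransferase, the rate-limiting enzyme of polyamine catabolism, and is found on chromosome X. Its brightest probe set read 11.14 on the knockout-labelled array and 9.17 on the control array. That is a difference of 1.97, or 3.92-fold higher, which was 7.73 times the spread of 0.26 at its expression level. The other probe sets gave almost the same difference, 1.90 (10.90 against 9.00) and 2.01 (10.60 against 8.59). SAT1 ranked number 14 of 12841 genes from the highest difference. All 3 identifiers end in _s_at, the platform's mark for probe sets that can match several transcripts, so no SAT1 value is left without them. A further probe set annotated to SAT1 together with another gene was not used.

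The sequence upstream of SAT1 is printed with that of AMD1, since these were the members with the highest difference and, among the synthesis genes, the lowest. Both are the 250 bases before the gene start in RefSeq on GRCh38.p14, at chrX:23782923-23783172 and chr6:110874535-110874784, both on the + strand and written 5′ to 3′. Capitals mark the CCAAT box (CCAAT on either strand).
SAT1: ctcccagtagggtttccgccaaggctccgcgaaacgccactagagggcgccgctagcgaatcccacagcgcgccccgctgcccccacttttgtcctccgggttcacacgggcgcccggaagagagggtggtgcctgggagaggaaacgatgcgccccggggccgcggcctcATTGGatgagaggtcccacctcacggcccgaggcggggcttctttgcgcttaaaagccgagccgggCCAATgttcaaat
AMD1: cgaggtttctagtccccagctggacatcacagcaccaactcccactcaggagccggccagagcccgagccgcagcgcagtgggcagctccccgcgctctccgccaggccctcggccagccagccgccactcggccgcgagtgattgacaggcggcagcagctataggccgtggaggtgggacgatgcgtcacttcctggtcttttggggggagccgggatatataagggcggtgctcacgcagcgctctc
SAT1 had a CCAAT box on each strand, the nearer ending 9 bases before the gene start, and AMD1 had none. Upstream sequences were found for 7 of the 10 members: ODC1, AMD1, SRM, SMS, SAT1, OAZ1 and OAZ2. A CCAAT box lay in 4 of them (SRM, SMS, SAT1, OAZ1), against 35.0% of 10373 genes above the floor. The E-box CACGTG, bound by MYC and MAX, was found in 1 of the 7 (SRM), against 8.89% of those genes. TGATGNAA, a core of the C/EBP-ATF response element, was in none of the 7 (1.57% of genes), nor were TGACNNNGC, a core of the antioxidant response element (12.1%), or TATAAA (5.52%). All motifs were searched on both strands and chosen after the expression values were seen. Such a match describes letters in this window alone. The bases upstream were 66.4% G or C for SAT1 and 67.2% for AMD1.

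The oxidases of polyamine catabolism went in opposite directions. SMOX, which oxidises spermine directly to spermidine, read 6.49 on the knockout-labelled array against 5.93 on the control, a difference of 0.56 or 1.47-fold higher. That was 1.42 times the spread of 0.39, and its dimmer probe sets gave 0.33 and 0.25, all 3 above 0. PAOX, the peroxisomal oxidase of acetylated polyamines and thus the step after SAT1, read 5.11 on the knockout-labelled array and 6.18 on the control array. Its difference of -1.07, or 2.10-fold lower, was 3.12 times the spread of 0.34 in size. The dimmer PAOX probe sets differed by -0.52, -0.92 and -0.065, so all 4 lay below 0 but only the brightest was past 2-fold, and the mean over them was -0.64. On the knockout-labelled array the probe set at -0.92 was under the floor (4.46 against 5.38). The difference of SAT1 exceeded that of PAOX by 3.04 on the log2 scale, the widest gap within this group.

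Transcripts of the synthesis enzymes did not all differ alike: AMD1, ODC1 and SRM were lower, SRM by less than its spread, and SMS was higher. The synthesis genes had a median difference of -0.27, and 3 of 4 lay below 0, where 45.1% of all genes did. None was past 2-fold in its brightest probe set, where 3.79% of all genes were 2-fold lower. AMD1, the decarboxylase of S-adenosylmethionine that supplies the aminopropyl groups, read 9.40 on the knockout-labelled array and 10.14 on the control array. The difference was -0.73, or 1.66-fold lower and 2.01 times the spread of 0.36 in size. Its other probe set was 2.07-fold lower, at 8.74 against 9.79. AMD1 was therefore past 2-fold in the dimmer of its probe sets and not in the brighter.

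ODC1, the ornithine decarboxylase and a well-known MYC target, read 11.42 on the knockout-labelled array against 11.79 on the control array in its single probe set. The difference of -0.37 was 1.29-fold lower, or 1.43 times the spread of 0.26 in size. SRM, the spermidine synthase, read 9.30 and 9.48. Its difference of -0.18 was smaller than the spread of 0.36. SMS, the spermine synthase, was the synthesis gene that lay above 0, at 10.56 on the knockout-labelled array and 10.29 on the control, a difference of 0.27 and 1.07 times the spread. SMS is on chromosome X like SAT1. The differences of the spermine and spermidine synthases were 0.45 apart.

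**Figure D2:**
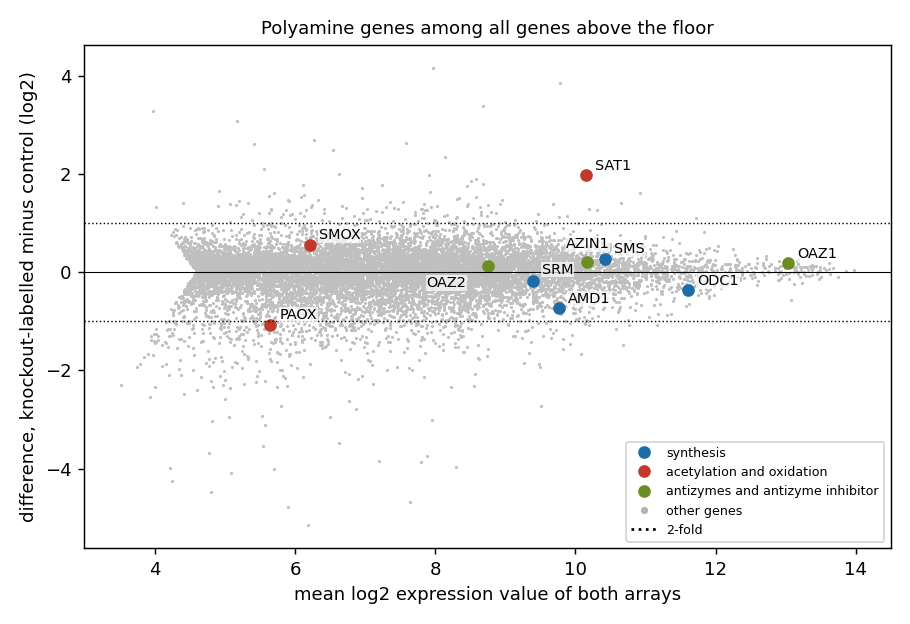
Difference between the arrays (knockout-labelled minus control, log2) against the mean log2 value of both, for the 10 polyamine genes (coloured by role) and all other genes above the floor (grey, 12841 genes in all), with dotted lines at 2-fold. SAT1 lies at 1.97 above the grey cloud at its level, PAOX at -1.07 just past the lower line and the antizyme genes close to 0. AMD1 at -0.73 does not reach the lower line and ranks number 929 from the lowest difference.

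Antizyme transcripts and the antizyme inhibitor differed little between the arrays. All 3 genes were above 0 (52.9% of all genes were), with a median of 0.18, and none reached its spread. OAZ1, the main antizyme, read 13.13 on the knockout-labelled array and 12.95 on the control, a difference of 0.18 (0.24 in its other probe set). OAZ2, a second antizyme, read 8.82 and 8.68, a difference of 0.13, and 0.38 in its other probe set. AZIN1, an ODC1-like protein without decarboxylase activity that sequesters antizymes, read 10.27 and 10.07, a difference of 0.20. Its other probe sets gave 0.34 and, under the floor on both arrays, 0.098. The AZIN1 difference exceeded that of OAZ1 by 0.018 and that of OAZ2 by 0.065, both smaller than the spread of any of these genes.

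Set side by side, the median of acetylation and oxidation was 0.56 and that of synthesis -0.27, a gap of 0.83. That gap rests on few genes that did not differ alike. 1 of the 3 in acetylation and oxidation is SAT1, known to be high before the members were listed. The others, SMOX at 0.56 and PAOX at -1.07, lie on either side of the synthesis median. The gap is therefore a description, and nothing is read from it. SAT1 exceeded every synthesis gene, by 2.34 for ODC1, 2.70 for AMD1, 2.15 for SRM and 1.70 for SMS. SMOX also exceeded them all, by 0.29 (SMS) to 1.29 (AMD1). The gap between SMOX and SMS was smaller than the SMOX spread of 0.39. It nearly closed with 64 linear units added, where SMOX stood at 0.30 and SMS at 0.26. PAOX lay below SMS by -1.34, SRM by -0.89 and ODC1 by -0.70. Its gap of -0.34 to AMD1 was no larger than the spread of either gene and turned under 3 settings, with PAOX at -0.64 and AMD1 at -0.89 as the mean of probe sets, -0.52 and -0.73 without _s_at and _x_at probe sets, and -0.47 and -0.68 with 64 linear units added to both arrays. These gaps between genes do not move when an array is scaled by a constant, unlike each gene's own difference. The transcript of the acetylase was higher relative to those of all synthesis enzymes on the knockout-labelled array. This order follows from the SAT1 difference that was already known, so nothing further is read from it. PAOX was lower relative to ODC1, SRM and SMS in its brightest probe set and had no settled order with AMD1. PAOX and ODC1 stood closer without _s_at and _x_at probe sets (-0.52 and -0.37) and with 64 linear units added (-0.47 and -0.36). The dimmest PAOX probe set, at -0.065, lay above ODC1 at -0.37 and SRM at -0.18.

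**Figure D3:**
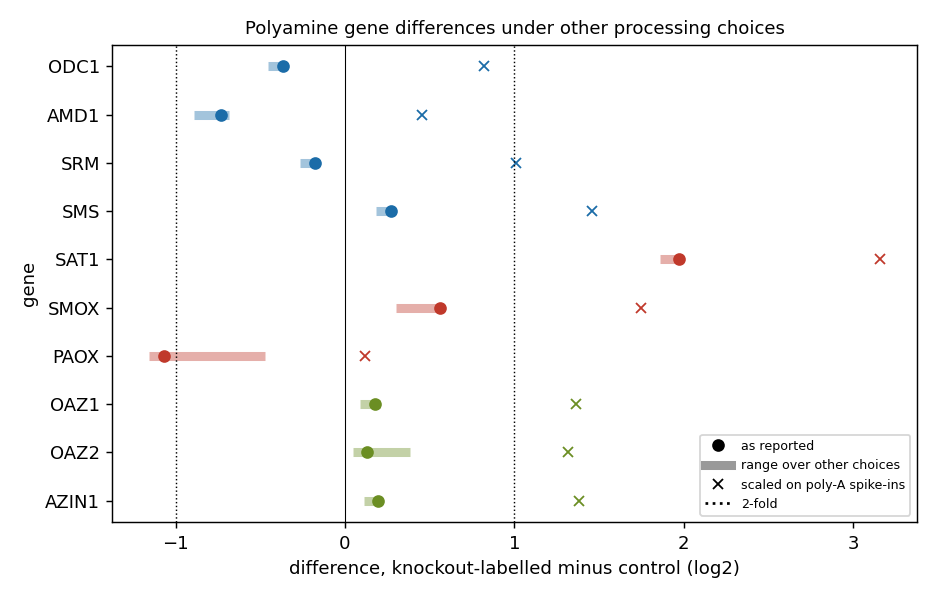
Difference of each polyamine gene (knockout-labelled minus control, log2) as reported (circle), its range over the other processing choices (bar) and its value when the arrays were scaled on the poly-A spike-ins (cross), with dotted lines at 2-fold. SAT1 stays between 1.86 and 1.97 and AMD1 between -0.89 and -0.68, PAOX ranges from -1.16 to -0.47, and the spike-in scaling moves every gene up by the same amount.

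Genes beyond the core pathway were taken from 6 lists of suppliers, relatives, users and transporters. The methionine cycle, which makes the S-adenosylmethionine that AMD1 consumes, held the lowest of them. MAT2A, the S-adenosylmethionine synthetase of most tissues outside the liver, read 9.04 on the knockout-labelled array and 10.61 on the control array. Its difference of -1.57, or 2.97-fold lower, was 4.30 times the spread in size, and its other probe set differed by -2.20. MTR, the methionine synthase, differed by -0.45 (8.26 against 8.70). MAT2B, the regulatory subunit of MAT2A, lay on the other side at 0.40 (10.92 against 10.51). MTAP, which salvages the methylthioadenosine released by both aminopropyl transfers, differed by -0.50 (8.26 against 8.76) and was below 0 in 5 of 6 probe sets. GOT1, a cytosolic aminotransferase, was at 0.68 (9.26 against 8.58). Of the 12 genes in the list, all above the floor, 5 were above and 7 below 0, with a median of -0.20, 1 was 2-fold lower (MAT2A) and none 2-fold higher. Over all genes above the floor 45.1% lay below 0, 3.79% were 2-fold lower and 1.05% 2-fold higher. MAT2A and AMD1, which act in succession on the way to the aminopropyl donor, were thus both lower, each in all of its probe sets.

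Of 9 ornithine supply genes, 7 reached the floor, 2 above and 5 below 0 (45.1% of all genes lay below 0), with a median of -0.30. AGMAT, an enzyme of the ureohydrolase family, is annotated as an agmatinase, which yields putrescine and not ornithine, so its place in this list is loose. It read 6.25 on the knockout-labelled array and 7.30 on the control, a difference of -1.05. No other gene of the list was past 2-fold in its brightest probe set (3.79% of all genes were 2-fold lower). Its 3 probe sets ranged from -1.05 to -0.059. ASS1, the argininosuccinate synthase, differed by -0.52 (9.72 against 10.24), ASL, the next enzyme, by -0.30 (8.01 against 8.31) and OAT, the ornithine aminotransferase, by -0.30 (11.09 against 11.40). ARG2, the mitochondrial arginase, hardly differed, at 9.50 and 9.44. ARG1, the liver arginase, was under the floor on both arrays.

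Among relatives of the core genes, both AZIN2 and OAZ3 were above 0. AZIN2, a second antizyme inhibitor, differed by 0.62 (6.54 against 5.92), with 0.57 in its other probe set. OAZ3, the antizyme of the testis, differed by 0.49 in its brighter probe set (6.18 against 5.69) and by -0.34 in the other, so its direction is not settled. SAT2, a relative of SAT1 that is known to act chiefly on thialysine, was higher by 0.49 (8.95 against 8.46), 1.41-fold. HDAC10, a deacetylase of N8-acetylspermidine, differed by 0.087 (5.77 against 5.68) and by 0.90 in its dimmer probe set. ALDH9A1, which oxidises aminobutyraldehyde, differed by -0.24 (10.11 against 10.35). AOC1, the diamine oxidase of the gut, was under the floor on both arrays. The list of other catabolic enzymes had 2 of 3 genes above 0 (52.9% of all genes were) and a median of 0.087. None of them reached 2-fold in its brightest probe set.

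Hypusination uses spermidine to modify the translation factor eIF5A. DHPS, the deoxyhypusine synthase and first enzyme of that step, read 9.02 on the knockout-labelled array and 8.24 on the control, a difference of 0.77, 1.71-fold and 1.99 times the spread. All 3 of its probe sets agreed, from 0.73 to 0.84. DOHH, the second enzyme, was at 5.59 and 5.56, and EIF5A itself at 12.61 and 12.50, differences of 0.030 and 0.11 that are below their spreads. EIF5A2, a paralogue of EIF5A, differed by -0.38 (6.67 against 7.06), with all 3 probe sets below 0. The 4 genes had a median of 0.071.

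Of the 9 transport genes above the floor, 7 lay below 0, where 45.1% of all genes did, with a median of -0.23 and none past 2-fold. Of these 7, 3 differed by more than their spread in the brightest probe set. SLC18B1, a vesicular polyamine transporter, had the lowest value at -0.91 (7.77 against 8.68), 2.35 times the spread in size. SLC7A2, a transporter of cationic amino acids, differed by -0.50 (7.56 against 8.07), and its 3 probe sets ranged from -0.50 to -0.025. ATP13A3 is a P5B-type ATPase of the plasma and endosomal membranes implicated in polyamine uptake. It differed by -0.41 (8.47 against 8.88) and by only -0.051 in its other probe set. SLC3A2, a heavy chain of amino acid transporters that has been linked to polyamine export together with SAT1, was higher by 0.42 (9.78 against 9.37). The plot of these lists shows how far MAT2A lies from the rest.

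**Figure D4:**
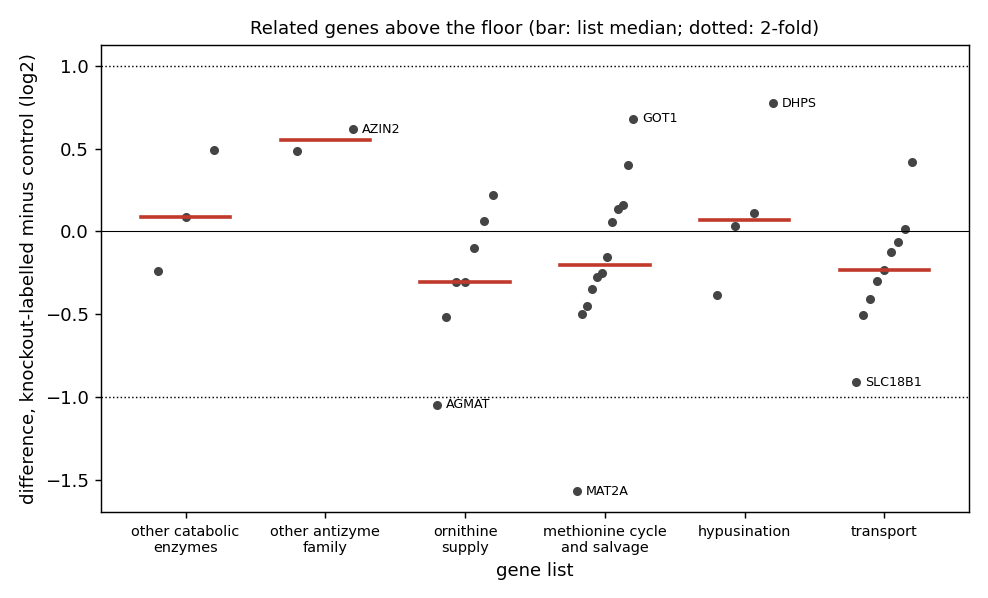
Difference (knockout-labelled minus control, log2) of each gene above the floor in the 6 lists of related genes, with a red bar at each list median and dotted lines at 2-fold. MAT2A at -1.57 and AGMAT at -1.05 are past the lower line, DHPS at 0.77 is the highest point, and the medians run from -0.30 (ornithine supply) to 0.55 (other antizyme family).

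The genes next to SAT1 on chromosome X did not share its difference. Among the 10 nearest genes above the floor in RefSeq order, 5 on each side, the differences ran from -0.58 to 0.54 with a median of 0.040, and none reached 2-fold. SMS, itself a member here, was among these neighbours at 0.27. The 373 genes of chromosome X above the floor had a median of 0.025. Around PAOX, near the end of chromosome 10, 8 such neighbours ran from -0.75 to 0.39 with a median of -0.0073. Around AMD1 on chromosome 6 the median of 10 neighbours was -0.35 and their range -0.74 to 0.81, so that AMD1 at -0.73 lay within the range of its own neighbours, while the chromosome as a whole had a median of 0.037.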

How the data were processed

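Per the submitters' processing notes, the authors used RMA, with no version, to make the deposited log2 values. RMA subtracts background, sets arrays to a common distribution and summarises each probe set, so a difference is relative to the other genes and a shift in total RNA is removed. RMA also compresses differences of dim genes. The sources used here do not say which arrays were normalised together. Of 54675 probe sets, 62 were controls and 41091 had exactly 1 symbol in the platform annotation. Of these, 41037 matched RefSeq (GRCh38.p14) by Entrez identifier and no symbol changed.

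A gene entered the comparison if it reached the floor on at least 1 array. All members are named, as are up to 4 genes per list with the largest difference, plus a few chosen after their values were seen (MAT2B, ARG2, ARG1, AOC1). The members and lists were chosen with earlier results of these data known. Other settings tried were a floor at the 75th percentile (6.60) or none, the mean of probe sets, no _s_at or _x_at probe sets, removal of a loess trend (span 0.3), median centring, scaling on 53 ribosomal protein genes or 24 poly-A spike-in probe sets, 64 linear units added, and 1.5-fold and 3-fold thresholds. The procedure was tested on simulated data with differences past 2-fold planted in genes clear of the floor. Smaller differences, and differences in genes nearer the floor, were not planted. Python 3.11.15, pandas 2.3.3 and statsmodels 0.14.6 were used.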

Additional observations from a re-analysis of the deposited data

How the results depend on the processing

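Leaving aside the spike-in scaling, every polyamine gene kept its direction under every setting that gave it a value: SAT1 from 1.86 to 1.97, AMD1 from -0.89 to -0.68, ODC1 from -0.45 to -0.36 and PAOX from -1.16 to -0.47. SMOX ranged from 0.30 to 0.56, and the lower end was under its spread of 0.39. PAOX was the member most open to processing, at -0.64 as the mean of its probe sets, -0.52 without _s_at and _x_at probe sets and -0.47 with 64 linear units added, so the count of members 2-fold lower was 0 in each of these, and 0 with the higher floor, which removed PAOX and SMOX. That count was 2 at 1.5-fold and 0 at 3-fold. Without _s_at and _x_at probe sets, which removes SAT1, SMS and OAZ1, no member was 2-fold higher (0 of 7), the median of acetylation and oxidation was -0.093 and its gap to synthesis 0.27. With the higher floor SAT1 alone was left in that group, at 1.97 and a gap of 2.24. The other catabolic enzymes had a median of 0.49 both as the mean of probe sets and without _s_at and _x_at probe sets, and turned below 0 with no floor (-0.076) and on ribosomal scaling (-0.0010). The hypusination median also turned on ribosomal scaling (-0.017).

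Scaling on the poly-A spike-ins moved all genes up together, to a median of 1.22 over all genes. PAOX then stood at 0.12, in the opposite direction, SAT1 at 3.16, AMD1 at 0.45 and ODC1 at 0.82, and 7 members were 2-fold higher and 0 lower, against 71.2% and 0.34% of all genes. The medians became 0.92 for synthesis, 1.75 for acetylation and oxidation, 1.37 for antizymes, 1.27 for other catabolic enzymes, 1.74 for the other antizyme family, 0.88 for ornithine supply, 0.98 for the methionine cycle, 1.26 for hypusination and 0.95 for transport. No paired analysis was possible because each group has 1 array. With 1 array per group no replicate could be left out.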
